A study of Mus musculus with 6 samples.

Results

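The Grb10 and Ddc locus is an imprinted stretch of mouse chromosome 11, taken here as chr11:11809101-12043683 of the mm10 (GRCm38) genome, which is 234583 bases. Its members were the CpGs with at least 10 reads, summed over the 2 replicate libraries, in each of 3 pluripotent cell types. This rule used position and depth only, and it kept 220 of the 277 CpGs of the locus that had a read in any library, out of 1106981 CpGs compared over the whole genome. DNA methylation was measured by RRBS, in which MspI cuts DNA at CCGG, short fragments are treated with bisulfite, and only methylated cytosines still read as C afterwards. The level of a CpG is the percentage of its reads that were methylated.

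The 3 cell types were C-iPSCs, 4F-iPSCs, and mESCs, with 2 libraries each and 6 libraries in all. C-iPSCs were induced from mouse fibroblasts with small-molecule cocktails, and 4F-iPSCs from the same kind of fibroblasts with retroviral Oct4, Sox2, Klf4, and c-Myc. Per the paper, the cocktails included valproic acid, DZNep, and 5-aza-2′-deoxycytidine, which its 4F-iPSC protocol does not list. These compounds cannot be told apart from the C-iPSC type, and their part in the methylation levels was not tested. The fibroblasts were OG2-MEFs, embryonic fibroblasts that carry an Oct4 reporter, from mice of 129S4/SvJaeJ, CBA/CaJ, and C57BL/6J background. Both iPSC types were at passages 5 to 10, and the mESCs, of the E14 line, were at passages 20 to 30. All cells were labelled male and were grown with serum, LIF, and 2i. Per the labels, MEF feeders were taken off on gelatin before collection. Strain and passage therefore differ between the iPSCs and mESCs and cannot be told apart from the cell type. No source says that the 2 libraries of a cell type came from separate lines or cultures, so p-values over libraries may measure technical spread only. The question of the comparison was how closely the methylation of an imprinted locus in each kind of iPSC came to that in mESCs.

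Grb10 encodes an adaptor protein that binds the insulin and IGF receptors and restrains growth. It is expressed from the maternal allele in most tissues and from the paternal allele in neurons. Its CpG island inside the gene is a germline imprint: it is methylated in the oocyte and not in sperm, and after fertilization the maternal copy stays methylated while the paternal copy stays unmethylated. ZFP57, with its partner TRIM28, binds the methylated hexamer TGCCGC and keeps such imprints through the early embryo. Ddc, the neighbor of Grb10, encodes DOPA decarboxylase, the enzyme that makes dopamine and serotonin, and is expressed from the paternal allele in the developing heart. RRBS does not tell the 2 alleles apart, so a level here is an average over alleles and cells.

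Both genes lie on the minus strand. In the basic GENCODE annotation of GRCm38, Grb10 spans chr11:11930508-12037401 and Ddc spans chr11:11814101-11898144. The island lies at chr11:12025639-12026881, which is 1243 bases, and it starts 10520 bases downstream of the main Grb10 start at 12037401. It is intronic to the main transcript, but the comprehensive annotation has 2 Grb10 transcripts that start inside it, at 12026324 and 12026732, so 26 of its 75 compared CpGs lie in untranslated exon sequence of those transcripts and 49 in introns. The island holds 134 CpGs and 17 CCGG sites in the reference, or 10.8 CpGs per 100 bases. The main Grb10 promoter, 1 kb to each side of the start, holds 222 CpGs, or 11.1 per 100 bases, and 104 of them were compared. A further 15 compared CpGs lay elsewhere in Grb10, 13 in Ddc, and 13 outside both genes.

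The sequences that carry the results are shown from the GRCm38 plus strand, 5′ to 3′, as given in the RefSeq assembly. The first is the densest stretch of compared CpGs in the island, chr11:12026383-12026470, where 94.0% of bases equal the base 21 positions further on, so that the same CpGs recur. Capitals mark its 20 compared CpGs, all within the region where 4F-iPSCs were high and C-iPSCs low.
Island repeat: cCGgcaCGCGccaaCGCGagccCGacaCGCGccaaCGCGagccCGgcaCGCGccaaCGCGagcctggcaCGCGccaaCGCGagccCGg
The second, chr11:12026225-12026252, holds 2 matches of TGCCGC, on opposite strands and in capitals, whose CpGs were both compared.
Island hexamer pair: TGCCGCtcagagacgaatgatcGCGGCA
The next pair surround the 2 island CpGs with the smallest differences between 4F-iPSCs and C-iPSCs, in capitals, at chr11:12026767-12026881 and chr11:12025656-12025697.
Island, CpG 12026832: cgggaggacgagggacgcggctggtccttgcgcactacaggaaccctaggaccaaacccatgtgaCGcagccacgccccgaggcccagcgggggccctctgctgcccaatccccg
Island, CpG 12025676: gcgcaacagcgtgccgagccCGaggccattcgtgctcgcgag
Then follows the main promoter fragment with the most compared CpGs outside annotated exons, chr11:12037524-12037632, for contrast with the island. Capitals mark its compared CpGs.
Main Grb10 promoter: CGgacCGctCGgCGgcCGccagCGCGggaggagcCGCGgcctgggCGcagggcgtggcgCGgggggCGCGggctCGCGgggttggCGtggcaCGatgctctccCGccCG
The last ones are a Grb10 intron fragment with few CpGs, chr11:12011757-12011925, and the Ddc fragment with the most compared CpGs, chr11:11893008-11893124, which is intronic. Capitals mark their compared CpGs.
Grb10 intron: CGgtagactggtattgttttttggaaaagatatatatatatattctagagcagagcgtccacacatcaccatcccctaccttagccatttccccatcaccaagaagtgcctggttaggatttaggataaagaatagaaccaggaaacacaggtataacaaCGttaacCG
Ddc intron: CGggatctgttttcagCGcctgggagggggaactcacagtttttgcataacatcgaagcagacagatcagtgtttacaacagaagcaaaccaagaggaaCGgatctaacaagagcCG

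Libraries held between 53694199 reads on CpGs (mESC replicate 2) and 96534037 (4F-iPSC replicate 1), with a median of 31 to 54 reads per CpG. The mean level of the compared CpGs, where a library had 10 reads or more, was 20.5% and 22.2% for mESC replicates, 25.9% and 29.8% for C-iPSC replicates, and 32.8% and 34.1% for 4F-iPSC replicates, so C-iPSCs lay between mESCs and 4F-iPSCs. The promoters of the pluripotency genes Pou5f1, Nanog, and Zfp42, at 7, 2, and 7 CpGs, were low, between 0% and 24.3% in every library. Dppa3 and Tdgf1 had no compared CpG. Since no cell type that is not pluripotent was read, these levels cannot check the pluripotent label. Pou5f1 is the gene of Oct4, whose reporter the OG2 cells carry, and its promoter CpGs had a median of 2063 summed reads in C-iPSCs and 2040 in 4F-iPSCs against 117 in mESCs, so reads of the gene and of added copies cannot be told apart. The level of each compared CpG along the locus differed by region: the main Grb10 promoter lay near 0 in every cell type, Ddc was low, most CpGs in the rest of Grb10 were higher, and the island differed between the cell types.

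**Figure D1:**
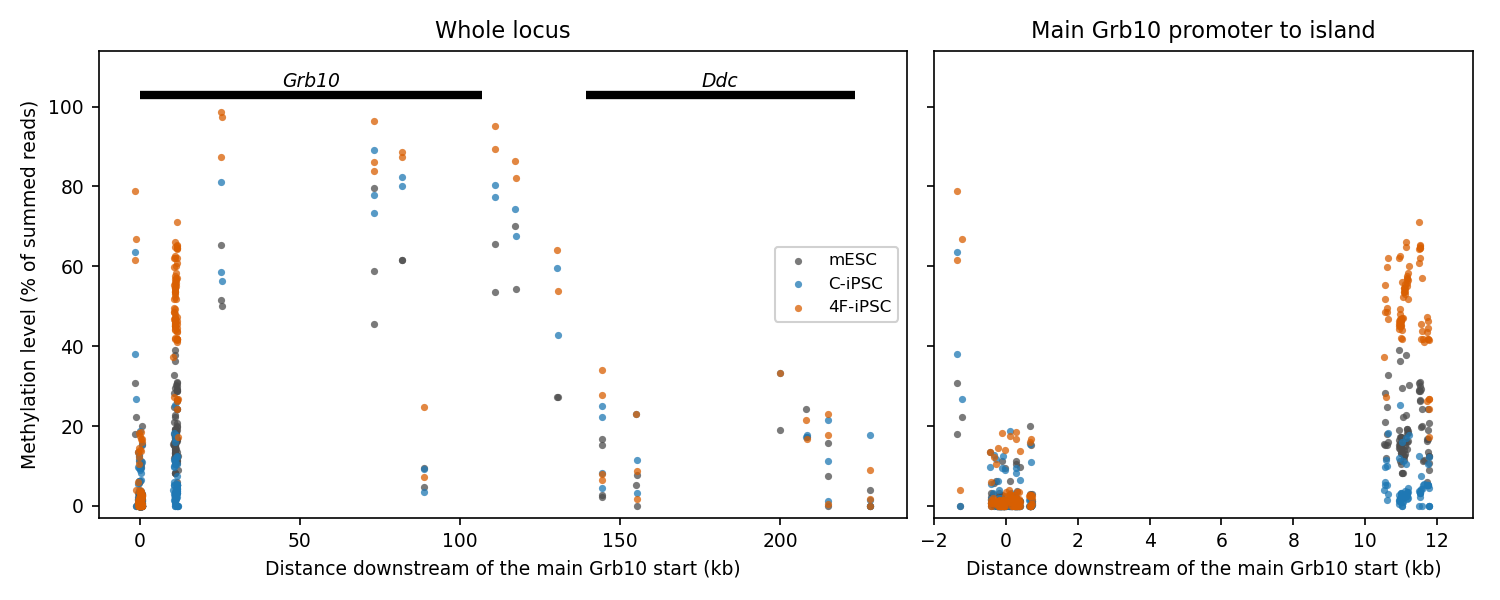
Methylation level (% of summed reads) of the 220 compared CpGs in mESCs, C-iPSCs, and 4F-iPSCs against distance downstream of the main Grb10 start in kb, for the whole locus and, on the right, from the main promoter to the island. The main promoter lay near 0 in all 3 cell types, while the island, from about 10.5 kb on, split into 4F-iPSCs on top, mESCs below them, and C-iPSCs at the bottom.

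At the Grb10 island, 4F-iPSCs were methylated the most, mESCs at an intermediate level, and C-iPSCs hardly at all. Summed over the 75 island CpGs, 4F-iPSC replicates 1 and 2 were methylated at 47.2% and 58.3% of reads, mESC replicates at 17.1% and 19.2%, and C-iPSC replicates at 4.32% and 3.41%. The 3 cell types did not overlap: the lower 4F-iPSC library lay above both mESC libraries, and the higher C-iPSC library below them. These are means of 52.7% ± 7.8 (SD, n = 2) in 4F-iPSCs, 18.2% ± 1.5 (SD, n = 2) in mESCs, and 3.87% ± 0.65 (SD, n = 2) in C-iPSCs. Between 4262 and 8309 reads per library stood behind each level, and the 95% Wilson interval was 46.1% to 48.3% for 4F-iPSC replicate 1 and 57.2% to 59.3% for replicate 2. These reads were summed over CpGs, so a read pair counts once for each CpG it covers, and reads that stem from 1 molecule by PCR cannot be recognized. The intervals are thus too narrow even for counting error and do not cover the spread between libraries. They were narrower than the gap between those 2 replicates.

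From the summed reads, C-iPSCs were 14.2 percentage points below mESCs at the island, and 4F-iPSCs were 34.8 points above mESCs and 49.0 points above C-iPSCs. Each difference was larger than the spread between replicates, but with 2 libraries against 2 the two-sided exact permutation test over libraries gave p = 0.333 for each of the 3 comparisons, which is the smallest p this design allows. Neighboring CpGs were read by the same read pairs, so a Fisher's exact test on all island reads counts each pair several times. With 1 CpG for each of the 14 MspI fragments instead, the deepest one outside CCGG or, where there was none, the deepest, the two-sided Fisher's exact test gave p = 2.55e-49 for C-iPSCs against mESCs and p = 3.7e-100 for 4F-iPSCs against mESCs, a test that ignores the spread between replicates.

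**Figure D2:**
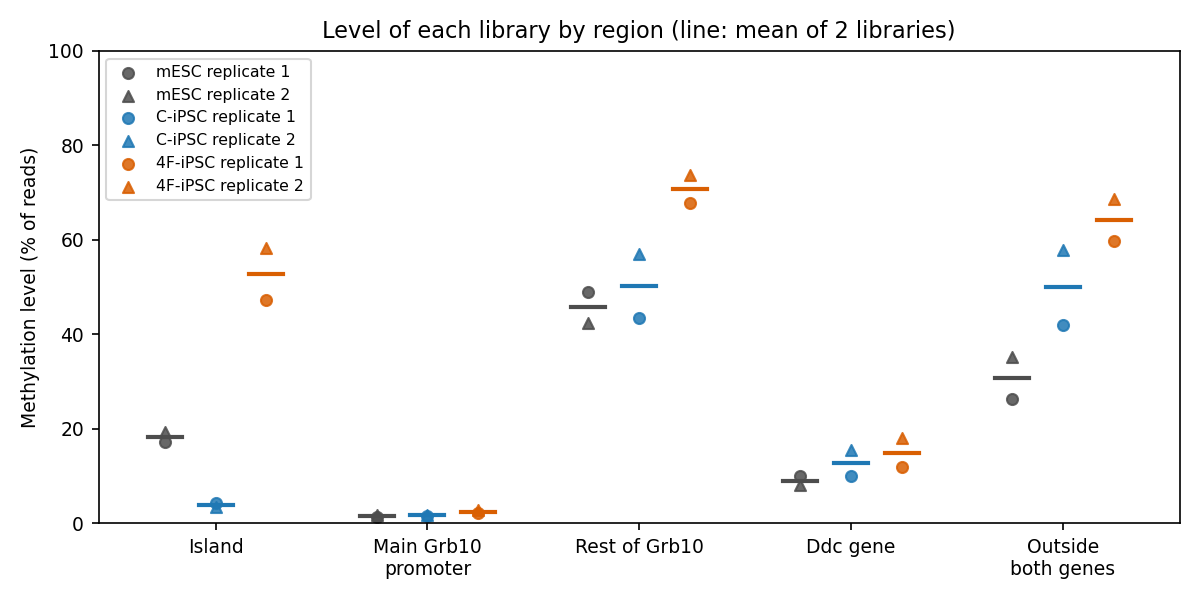
Methylation level (% of reads) of each library in 5 regions, with replicate 1 as circles, replicate 2 as triangles, and a line at the mean of the 2 libraries of a cell type. At the island the order was C-iPSC, mESC, 4F-iPSC from low to high; in the rest of Grb10, in Ddc, and outside both genes, the mean of C-iPSCs lay above that of mESCs.

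The split held for single CpGs. All 75 island CpGs had their lowest summed level in C-iPSCs and their highest in 4F-iPSCs. At 69 of the 74 with reads in every library, both C-iPSC libraries lay below both mESC libraries and both 4F-iPSC libraries above them, an arrangement found at 0.553% of the 1105377 CpGs of the genome with such reads. The arrangement that was common in the genome, with mESCs lowest, C-iPSCs between, and 4F-iPSCs highest in every library, was met at 16.4% of CpGs and at 0 of the 74 island CpGs. By fragment, 13 of the 14 MspI fragments of the island had the island's order in every library. The exception was a single CpG at 12026256, where mESC replicates had 29.7% and 10.0% and C-iPSC replicates 2.63% and 18.4%.

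A CpG was called strongly different when its summed levels differed by more than 0.333 (33.3 percentage points) and Fisher's exact test, two-sided, gave a p under 0.05 before adjustment. Between 4F-iPSCs and mESCs, 33 of the 75 island CpGs were strongly higher in 4F-iPSCs, where the genome had 14.3% of compared CpGs. Between 4F-iPSCs and C-iPSCs, 72 of the 75 were strongly higher in 4F-iPSCs, where the genome had 1.35%. Between C-iPSCs and mESCs no island CpG was strongly different in either direction by the exact test, and the summed mESC levels reached at most 39.1%. The genome shares there were 2.9% higher and 0.0374% lower in C-iPSCs. No CpG of the whole locus was strongly lower in 4F-iPSCs than in mESCs or C-iPSCs, where the genome shares were 0.0333% and 0.0285%.

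At other minimum differences with the same exact test, the counts over the 220 CpGs of the locus were as follows. Above 0.2, 6 CpGs were higher and 11 lower in C-iPSCs relative to mESCs, where the genome had 13.6% and 0.153%. Above 0.2, 84 CpGs were higher in 4F-iPSCs relative to mESCs (genome 28.2%), and above 0.5 there were 0 (genome 2.53%). Above 0.5, 26 CpGs were higher in 4F-iPSCs relative to C-iPSCs (genome 0.164%).

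A quasi-binomial model, which treats the libraries as replicates and adjusts p over all tested CpGs of the genome with the Benjamini-Hochberg method, was used beside the Fisher calls. With an adjusted p under 0.05 and the same size of difference, it called 32 island CpGs higher in 4F-iPSCs than in mESCs (genome 13.1%) and 61 higher in 4F-iPSCs relative to C-iPSCs (genome 0.614%). For calls of that size in the other direction, it made none in the island, with genome shares of 0.025% in the comparison with mESCs and 0.0142% in the comparison with C-iPSCs. Between C-iPSCs and mESCs it called no CpG of the island of that size, with genome shares of 1.49% higher and 0.0113% lower. Without a minimum difference, it called 34 of the 74 tested island CpGs lower in C-iPSCs than in mESCs with an adjusted p under 0.05, against 0.0458% of CpGs over the genome, and 50 with an unadjusted p under 0.05, against 0.165%. Outside the island, 0 of the 145 compared CpGs of the locus were called lower in C-iPSCs by either threshold. For C-iPSCs against mESCs, the model's dispersion, its measure of spread between libraries, was shrunk to 2.51 at every CpG. A CpG's own spread between replicates thus had almost no weight in these calls. The value came from CpGs with levels of 0.1 to 0.9 in both cell types, while the median island CpG had 3.16% in C-iPSCs.

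**Figure D3:**
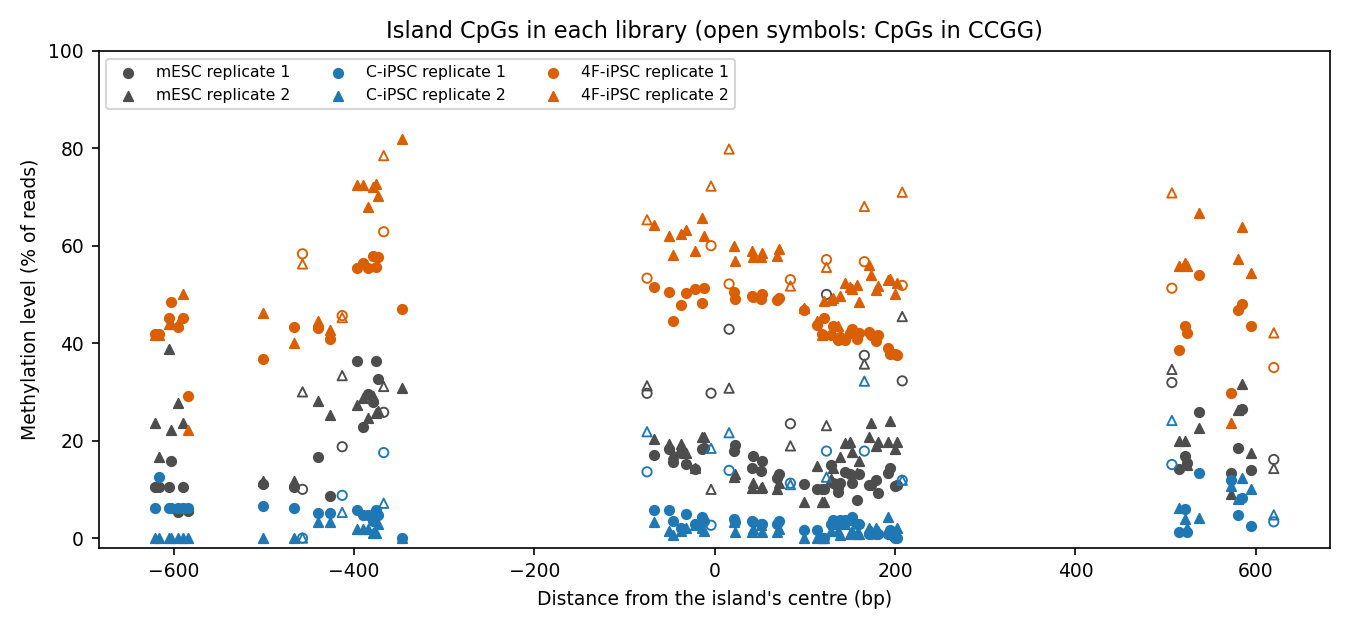
Methylation level (% of reads) of the 75 island CpGs in each of the 6 libraries against distance from the island's centre in bp, with replicate 1 as circles, replicate 2 as triangles, and CpGs inside CCGG as open symbols. The 4F-iPSC points form the upper band, between 22.2% and 81.8%, and both C-iPSC points lie below both mESC points and these below both 4F-iPSC points at 69 of the 74 CpGs read in every library.

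Within the island, the 10 CpGs with the largest difference between 4F-iPSCs and C-iPSCs lay between 12025803 and 12026256, with differences of 55.5 to 63.2 points. The largest was at 12025881, where 4F-iPSC replicates had 57.9% and 71.9%, mESC replicates 27.9% and 29.2%, and C-iPSC replicates 3.57% and 0.980%. The other members of this group were 12025803, 12025863, 12025870, 12025876, 12025885, 12025887, 12025893, 12025913, and 12026256. The 6 from 12025863 to 12025887 lie in the same MspI fragment and share read pairs, so they are not independent of each other. The highest summed level in 4F-iPSCs was 71.1% at 12025893, and the highest in mESCs was 39.1% at 12026468. The highest in C-iPSCs was 25.2% at 12026426, and 4 CpGs had 0% there, at 12025803, 12025913, 12026379, and 12026381. The first of these had only 10 C-iPSC reads, the minimum of the rule, while the CpG at 12036762 in the main promoter, with 8 reads in its shallowest cell type, was left out.

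The island was not uniform in 4F-iPSCs. Over the CpGs outside CCGG, summed levels ran from 26.2% to 65.4% with a median of 47.4%. The CpG at 12025676, printed above, had the lowest level in 4F-iPSCs, with 29.2% and 22.2% in the replicates, and also the lowest in mESCs, with 5.56% and 6.25%. The CpG at 12026832, also printed above, had 29.8% and 23.7% in 4F-iPSCs, while its nearest compared neighbors, 12026797 and 12026840, had 53.9% and 66.7% and 46.8% and 57.4%. Its level in C-iPSCs, 12% and 10.6%, was as high as that in mESCs, 13.4% and 9.09%. These 2 CpGs and 12025644, with a difference of 31.3 points, were the island CpGs not strongly higher in 4F-iPSCs relative to C-iPSCs.

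At the island, replicates differed most in 4F-iPSCs. At 63 of the 75 island CpGs replicate 2 lay above replicate 1, and at 12 below. In C-iPSCs replicate 2 lay below replicate 1 at 52 CpGs and above at 18. The count of CpGs strongly higher in 4F-iPSCs than in mESCs over the locus, 42 of 220 where the genome had 14.3%, was 23 without 4F-iPSC replicate 2 and 67 without 4F-iPSC replicate 1, while the island difference of 34.8 points was 29.1 and 40.2 points.

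In the 21-base repeat printed above, the CpG at 12026405, outside CCGG, had a summed level of 17.3% for mESCs, 3.32% for C-iPSCs, and 46.4% for 4F-iPSCs, whereas the one at 12026426, in CCGG, had 36.2%, 25.2%, and 62.6%. As a whole, its first fragment had 45.7% in 4F-iPSCs, 14.4% in mESCs, and 2.69% in C-iPSCs, and its second 47.6%, 16.9%, and 2.58%. At the hexamer pair, the CpG at 12026228 had 50.3% and 63.2% in 4F-iPSC replicates, 15.2% and 17.5% in mESC replicates, and 4.96% and 2.04% in C-iPSC replicates. Its partner at 12026248 had 51.4% and 62.0%, 18.5% and 20.7%, and 3.55% and 1.37%. The order of the cell types at both hexamers was thus that of the island as a whole. TGCCGC, read on both strands, matched 4 times in the island, and matches on opposite strands did not overlap. On chromosome 11, 34.5% of 4339 windows of 1243 bases centred on a transcript start held a match and 2.07% held at least 4. The window of that length around the main Grb10 start also held 4 matches, so the hexamer was not particular to the island. Of the matches within 1 kb of that start, the CpGs at 12037168 and 12037394 were compared, with summed levels of 0% to 2.75% in the 3 cell types.

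The main Grb10 promoter, an equally CpG-rich stretch, was almost unmethylated in every library. Replicates 1 and 2 had 1.26% and 1.68% for mESCs, 1.48% and 1.78% for C-iPSCs, and 2.07% and 2.83% for 4F-iPSCs, from 4477 to 6809 reads each. The mESC and C-iPSC libraries overlapped, and both 4F-iPSC libraries lay slightly above them. The difference was 0.995 points between 4F-iPSCs and mESCs (two-sided Fisher's exact test, p = 4.49e-08) and 0.814 points between 4F-iPSCs and C-iPSCs (p = 5.06e-06, same exact test), with an exact permutation p of 0.333 over libraries in both cases. Without 4F-iPSC replicate 2 they were 0.634 and 0.453 points, without 4F-iPSC replicate 1 they were 1.39 and 1.23, and without CCGG they were 0.519 and 0.45. With 1 CpG per fragment these became 0.285 points (Fisher's exact p = 0.634) and 0.916 points (Fisher's exact p = 0.0591). C-iPSCs and mESCs differed by 0.181 points (Fisher's exact p = 0.278, exact permutation p = 0.667). The direction turned with plus-strand reads (-0.00403 points), without mESC replicate 1 (-0.0799), and with 1 CpG per fragment (-0.630). Around the upstream start of the comprehensive annotation, 12038683, 14 CpGs were compared, and the differences there were 4.31 points for C-iPSCs minus mESCs (Fisher's exact p = 1.02e-05), 11.5 for 4F-iPSCs minus mESCs, and 7.18 for 4F-iPSCs minus C-iPSCs. No CpG of the main promoter was strongly different in any comparison. The genome shares were 14.3% higher and 0.0333% lower in 4F-iPSCs relative to mESCs. They were 2.9% and 0.0374% for C-iPSCs relative to mESCs, and 1.35% and 0.0285% for 4F-iPSCs relative to C-iPSCs. At 58 of the 104 CpGs the summed level was 0 in mESCs, at 46 in C-iPSCs, and at 29 in 4F-iPSCs. At the median of 92 summed reads per CpG in mESCs, a 0 allows a level of up to 3.26% (3 reads of the total). The highest CpG in mESCs was 12036734 with 20.0%, in C-iPSCs 12037276 with 18.8%, and in 4F-iPSCs 12037131 with 18.5%, and all 3 lay in CCGG.

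CpGs inside CCGG, where MspI cuts, read higher than other CpGs in every region. In the main promoter, the 13 CpGs in CCGG had 9.50% for mESCs, 10.5% for C-iPSCs, and 15.1% for 4F-iPSCs, against 0.657%, 0.727%, and 1.18% at the 91 others. In the island, the 12 CpGs in CCGG had 29.7% for mESCs, 14.5% for C-iPSCs, and 60.1% for 4F-iPSCs, against 16.9%, 2.83%, and 52.1% at the 63 others. The order of the cell types at the island was thus the same in both sets. The part of the position at a fragment's end in these levels was not tested.

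In the rest of Grb10, 15 CpGs in introns and a noncoding exon were compared, and levels were mostly high. Replicates had 48.9% and 42.5% for mESCs, 43.3% and 56.9% for C-iPSCs, and 67.7% and 73.8% for 4F-iPSCs. Both 4F-iPSC libraries lay above the other 4, and the C-iPSC and mESC libraries overlapped, with C-iPSC replicate 1 between the 2 mESC libraries. 4F-iPSCs were 24.9 points above mESCs (two-sided Fisher's exact test, p = 5.34e-53) and 20.6 points above C-iPSCs (Fisher's exact p = 2.55e-43), with an exact permutation p of 0.333 for both. C-iPSCs were 4.27 points above mESCs (Fisher's exact p = 0.0111, exact permutation p = 0.667). This was 10.8 points without C-iPSC replicate 1 and 7.76 without mESC replicate 1, and the call was lost without CCGG (1.62 points, Fisher's exact p = 0.499). Without C-iPSC replicate 2, C-iPSCs were 2.62 points below mESCs.

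The CpGs of the gene body fell into 3 places that differed in kind. At 11948484 and 11948509 levels were low, with 4.79% and 9.47% for mESCs, 3.48% and 9.14% for C-iPSCs, and 7.27% and 24.8% for 4F-iPSCs. From 11955347 to 12011924 the 8 CpGs had summed levels of at least 45.5% in every cell type and were highest in 4F-iPSCs, where the CpG at 12011924 reached 98.8%. In the intron fragment printed above, the CpG at 12011757 had 97.9% and 96.8% in 4F-iPSC replicates, 50% and 50% in mESC replicates, and 42.9% and 72.2% in C-iPSC replicates. Among the 15 CpGs of this region, it was the only CpG strongly higher in 4F-iPSCs relative to C-iPSCs (genome 1.35%), while 4 were strongly higher than in mESCs (genome 14.3%).

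The remaining 5 CpGs of the gene, from 12025609 to 12025628, lie within 30 bases of the island's edge, and all 5 had a higher summed level in 4F-iPSCs than in the other cell types. The 4 in 1 fragment had 1.67% and 0% in C-iPSC replicates and 22.5% and 26.3% in 4F-iPSC replicates, whereas mESC replicates had 47.4% and 5.33%. mESC replicate 1 had 4 or 5 reads at each of these 4 CpGs, so the place of mESCs could not be read there. The CpG at 12025628 had 16% and 0% in C-iPSC replicates, 18.2% and 5.88% in mESC replicates, and 39.1% and 46.2% in 4F-iPSC replicates, and its summed level was higher in C-iPSCs, 12.1%, than in mESCs, 10.7%. Taking these CpGs into the island left its differences at -14.2, 34.6, and 48.8 points.

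**Figure D4:**
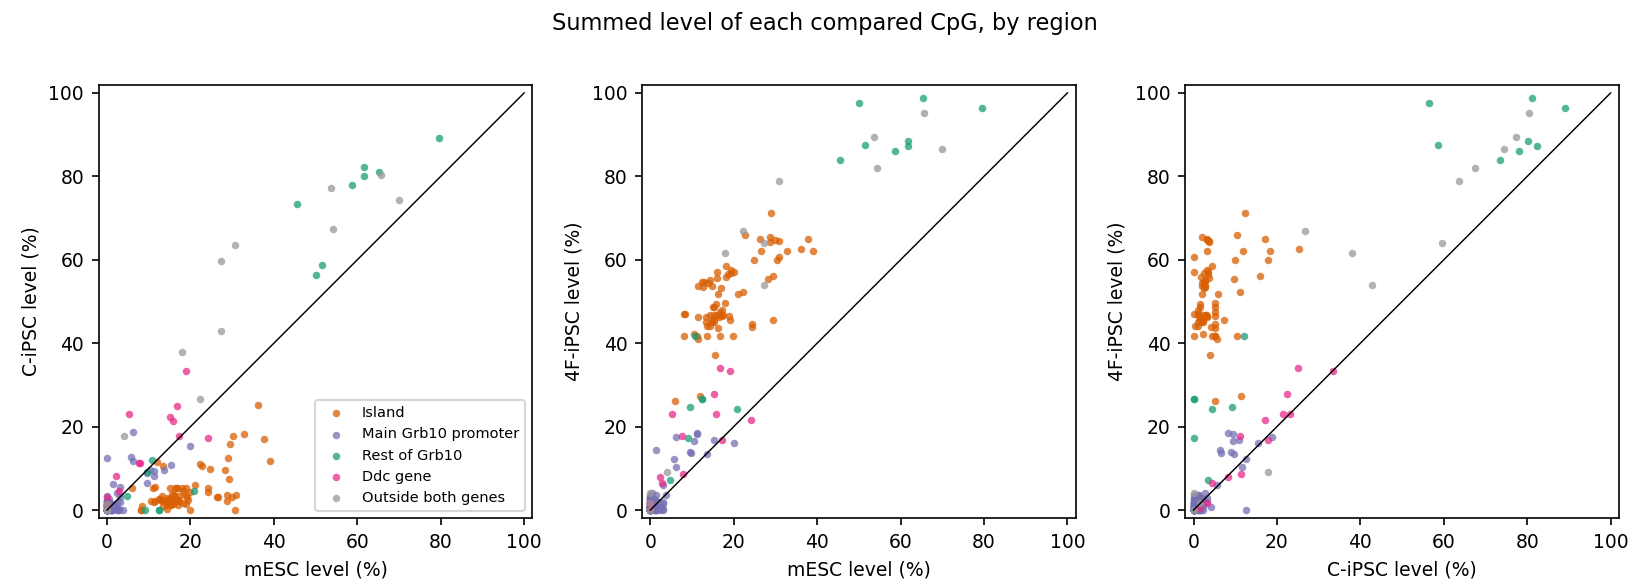
Summed methylation level (%) of each of the 220 compared CpGs in one cell type against another, colored by region, with a line where levels are equal. Island CpGs lie below the line for C-iPSCs against mESCs and above it in both comparisons of 4F-iPSCs, whereas in the rest of Grb10 C-iPSCs were above mESCs at 9 and below at 6 of 15 CpGs.

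Ddc was sparsely covered and low in methylation. No CpG within 1 kb of a Ddc start of the basic annotation had a read in any library, so the promoter gave no value. The reference holds 44 CpGs and 1 CCGG site in those 4102 bases, and the GC content is 45.9%. In the comprehensive annotation other Ddc transcripts start at 11822921, with the CpGs 11822369, 11822408, and 11822419 within 1 kb, and at 11836280, with the CpG 11837265 within 1 kb. The 13 compared CpGs of the gene, 12 in introns and 1 in a coding exon, gave 9.91% and 7.97% in mESC replicates, 9.97% and 15.5% in C-iPSC replicates, and 11.9% and 18.0% in 4F-iPSC replicates. The ranges of C-iPSCs and 4F-iPSCs overlapped, and C-iPSC replicate 1 lay close to mESC replicate 1.

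4F-iPSCs were 5.54 points above mESCs in Ddc (two-sided Fisher's exact test, p = 2.63e-06, exact permutation p = 0.333), and C-iPSCs were 3.37 points above mESCs (Fisher's exact p = 0.00269, exact permutation p = 0.333). The first was 2.87 points without 4F-iPSC replicate 2, 9.06 points without 4F-iPSC replicate 1, and 3.27 points without CCGG. The second was 6.48 points without C-iPSC replicate 1. It lost its call without C-iPSC replicate 2 (0.992 points, Fisher's exact p = 0.437), without mESC replicate 2 (1.87 points, Fisher's exact p = 0.201), with minus-strand reads (2.43 points, Fisher's exact p = 0.19), and with 1 CpG per fragment (2.07 points, Fisher's exact p = 0.119). 4F-iPSCs and C-iPSCs differed by 2.16 points (Fisher's exact p = 0.0552, exact permutation p = 0.667). This turned to -0.945 points without C-iPSC replicate 1 and -0.500 without 4F-iPSC replicate 2. It was 4.54 points without C-iPSC replicate 2 and 5.68 without 4F-iPSC replicate 1. With at least 10 reads in every library it was 2.31 points (Fisher's exact p = 0.0391). No Ddc CpG was strongly different in any comparison. The genome shares were 14.3% higher and 0.0333% lower in 4F-iPSCs relative to mESCs. They were 2.9% and 0.0374% for C-iPSCs relative to mESCs, and 1.35% and 0.0285% for 4F-iPSCs relative to C-iPSCs. With only 13 CpGs, 0 calls was near these shares. The highest Ddc CpGs were 11829153 in mESCs with 24.2%, 11837265 in C-iPSCs with 33.3%, and 11893008 in 4F-iPSCs with 34.0%, and all 3 lay in CCGG. The lowest was 11822408, with 0% for mESCs, 1.25% for C-iPSCs, and 0.446% for 4F-iPSCs. In the Ddc fragment printed above, the 2 CpGs outside CCGG, 11893024 and 11893107, had between 2.15% and 10.6% in every library.

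The 13 CpGs outside both genes had 26.2% and 35.2% in mESC replicates, 42.0% and 57.9% in C-iPSC replicates, and 59.7% and 68.6% in 4F-iPSC replicates. Their order, with C-iPSCs between mESCs and 4F-iPSCs in every library, was that of the genome's means and not that of the island. In 4F-iPSCs, 5 of them were strongly higher than in mESCs (genome 14.3%) and 1 strongly higher than in C-iPSCs (genome 1.35%). The lowest summed level was 0% in each cell type, at 11809344, and the highest was 70.0% at 11920092 in mESCs and, at 11926475, 80.4% in C-iPSCs and 95.1% in 4F-iPSCs. Those from 12038625 to 12038771 lie just upstream of the main promoter, next to a Grb10 start at 12038683 in the comprehensive annotation. The CpG at 12038771 had 25.0% and 35.7% for mESCs, 50% and 94.1% for C-iPSCs, and 73.3% and 88.5% for 4F-iPSCs. Inside the first exon of that transcript, the CpG at 12038672 had 0% in 5 libraries and 9.09% in 4F-iPSC replicate 2, whereas the CpG at 12038625 had 15.6% and 29.0% in mESC replicates, 13.6% and 45.2% in C-iPSC replicates, and 64.1% and 70.4% in 4F-iPSC replicates. The latter was strongly higher in 4F-iPSCs in both comparisons.

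The island's differences were set against those of the locus. The island level minus the level of the other 145 compared CpGs was 9.09 and 10.0 points in mESC replicates, -5.27 and -10.2 in C-iPSC replicates, and 33.3 and 41.6 in 4F-iPSC replicates. In C-iPSCs the island was thus below the other CpGs and in the other cell types above them, but 104 of those 145 CpGs are in the main promoter, which was near 0. The difference of this quantity was -17.3 points between C-iPSCs and mESCs, 27.9 between 4F-iPSCs and mESCs, and 45.2 between 4F-iPSCs and C-iPSCs, without overlap of libraries in any comparison and with an exact permutation p of 0.333, the smallest possible. Measured against the main promoter, the same differences were -14.5, 33.6, and 48.1 points, again with p = 0.333 by the exact permutation test. Against the rest of Grb10 they were -18.8, 9.49, and 28.3 points (exact permutation p = 0.333 each), and there the island was the lower of the 2 in every library. The island level minus that of the rest of Grb10 was -31.7 and -23.2 points for mESC replicates, -39.0 and -53.5 for C-iPSC replicates, and -20.5 and -15.5 for 4F-iPSC replicates. Of the 145 CpGs outside the island, 69 were higher in C-iPSCs than in mESCs, 38 lower, and 38 equal.

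The promoters of 8 other imprinted genes with a maternal germline imprint were read in the same way, at all compared CpGs within 1 kb of a transcript start. In all 8, both C-iPSC libraries lay below both mESC libraries, and both 4F-iPSC libraries above them, as at the Grb10 island. These 8 genes were listed with earlier results of these data known, and the share of all promoters with this order was not computed. In summed levels the Pou5f1 promoter had the order too, but not in every library. Peg3, a zinc finger gene expressed from the paternal allele, had 36.5% and 41.6% for mESCs, 4.60% and 8% for C-iPSCs, and 54.6% and 60.3% for 4F-iPSCs at 5 CpGs. Mest, a hydrolase gene, had 21% and 18.4% for mESCs, 11% and 13.9% for C-iPSCs, and 41.2% and 46.7% for 4F-iPSCs at 6 CpGs. Peg10, a retrotransposon-derived gene needed in the placenta, had 19.4% and 30.2% for mESCs, 8.78% and 2.37% for C-iPSCs, and 59.1% and 60.1% for 4F-iPSCs at 11 CpGs. Over the 8 promoters, summed levels ran from 4.28% (Zrsr1) to 12.4% (Mest) in C-iPSCs, from 20.2% (Mest) to 43.9% (Plagl1) in mESCs, and from 44.1% (Mest) to 61.5% (Nap1l5) in 4F-iPSCs. The summed island level in mESCs, 18.1%, and in C-iPSCs, 3.88%, was lower than in all 8, and its level in 4F-iPSCs, 52.9%, lay within their range. These loci were read from the same 6 libraries, so they share any property of those libraries and are not independent replicates of the island.

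**Figure D5:**
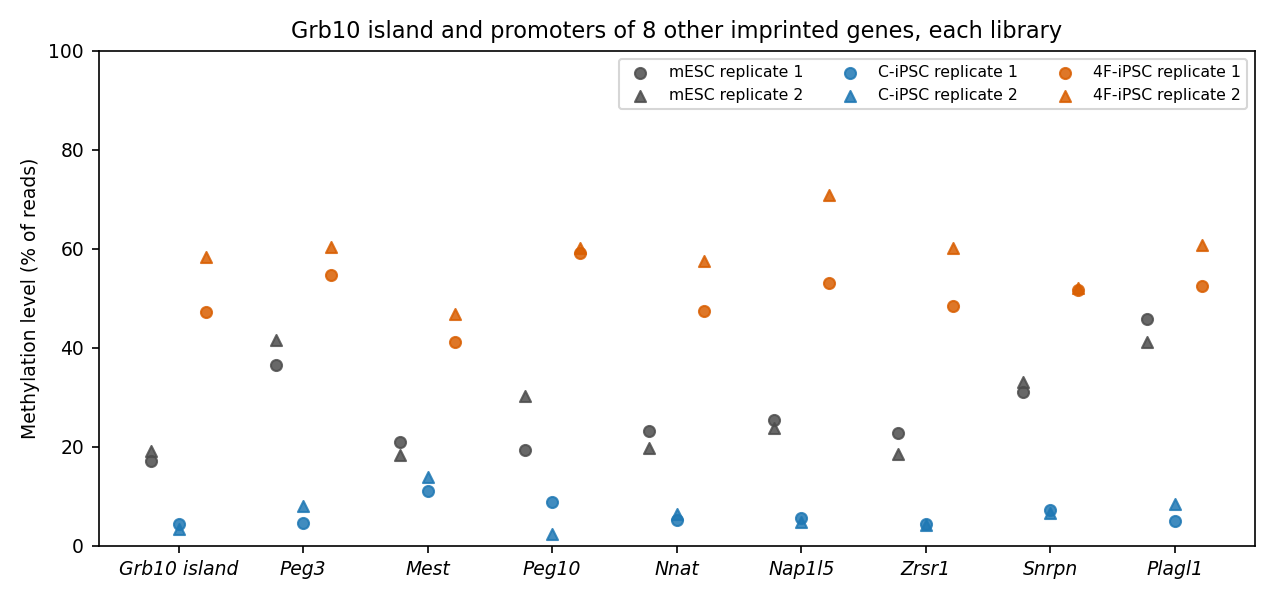
Methylation level (% of reads) of the Grb10 island and of the promoters of 8 other imprinted genes in each of the 6 libraries, with replicate 1 as circles and replicate 2 as triangles. At every one of the 9 places the C-iPSC points lie lowest, the mESC points next, and the 4F-iPSC points highest.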

How the data were processed

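RRBS libraries (MspI digestion, size selection, paired-end reads) of 3 cell types, with 2 libraries each, were analysed. The authors aligned read pairs to mm10 with BSMAP 2.90 (per the submitters' processing notes), kept uniquely mapped pairs, called CpGs with MOABS, and deposited for each library the counts of all and of methylated reads at each CpG, by strand, without normalization. The deposited fraction equalled methylated over all reads within 0.001 at every CpG. All 104538 deposited CpGs of chromosome 11 were CG in GRCm38.

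Reads were summed over replicates. Compared CpGs had 10 summed reads or more in every cell type. The members and lists were chosen with earlier results of these data known. CpGs were placed, in this order, in the island, the main Grb10 promoter (1 kb to each side of the most upstream start of the basic annotation), the Ddc promoters, Grb10, Ddc, or outside. Tests, all two-sided, were Fisher's exact test of the summed reads, the exact permutation test over libraries, and a quasi-binomial model over all compared CpGs, whose dispersion was shrunk with limma 3.58.1 (squeezeVar, prior from levels of 0.1 to 0.9, dispersion at least 1) in R 4.3.3, with Benjamini-Hochberg adjustment. SciPy 1.17.1 was used. The calls were run on simulated reads for 4F-iPSCs against mESCs, with 200 of 20000 CpGs changed. Fisher calls recovered 93% of the changed CpGs and quasi-binomial calls 69%. The other comparisons were not simulated. Each region gives its range and extreme CpGs, and the 10 strongly called CpGs with the largest difference between 4F-iPSCs and C-iPSCs are named. Other single CpGs were chosen after their values were seen. Alternatives were other read minimums (5, 20, or 10 in every library), single strands, means of CpG levels, a promoter width of 0.5 kb, other differences (0.2, 0.5), a replicate block, and each library left out. Those without CCGG, with 1 CpG per fragment, with an extended island, with another start, and with crossed pairs were added after seeing the data. Conversion controls, alleles, MEFs, and RNA were not analysed here.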

Additional observations from a re-analysis of the deposited data

Results flagged for a closer look

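At the Grb10 island the 2 iPSC types departed from mESCs in opposite directions in every library, with both C-iPSC libraries below and both 4F-iPSC libraries above both mESC libraries. The direct difference, 4F-iPSCs minus C-iPSCs, was 49.0 points, and its exact permutation test over 2 libraries against 2 gave p = 0.333, the smallest possible. The same opposite departure was met at all 8 promoters of other imprinted genes, which were listed with earlier results of these data known. The difference between 4F-iPSCs and C-iPSCs there was not tested. It was 51.4 points at Peg3, 31.7 at Mest, 53.5 at Peg10, 46.8 at Nnat, 56.1 at Nap1l5, 50.1 at Zrsr1, 45.0 at Snrpn, and 50.3 at Plagl1.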

How the results depend on the processing

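Of 271 recomputed values, 243 kept their direction and their side of the threshold or stayed close to the reported value. Among these, the island's differences set against the rest of the locus could not change side. Their exact permutation p cannot fall below 0.333, and with a library left out there is none. In both 4F-iPSC comparisons the counts of strongly lower CpGs were 0 and stayed 0 throughout. The 3 island differences kept their direction under the settings run, and their side of the threshold under those with a test (the mean of CpG levels has none). Over 14 settings each, C-iPSCs minus mESCs ran from -15.7 to -13.3 points, 4F-iPSCs minus mESCs from 29.1 to 40.2, and 4F-iPSCs minus C-iPSCs from 43.3 to 54.4.

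At the main promoter, C-iPSCs minus mESCs (0.181 points) was -0.00403 with plus-strand reads and -0.630 with 1 CpG per fragment, ran from -0.0799 (without mESC replicate 1) to 0.342 with a library left out, and was 4.31 with the upstream start, under which 4F-iPSCs minus mESCs was 11.5 and 4F-iPSCs minus C-iPSCs 7.18. With 1 CpG per fragment, 4F-iPSCs minus mESCs was 0.285 and 4F-iPSCs minus C-iPSCs 0.916. In the rest of Grb10, C-iPSCs minus mESCs was 1.62 without CCGG and between -2.62 (without C-iPSC replicate 2) and 10.8 with a library left out. In Ddc, C-iPSCs minus mESCs was 2.43 with minus-strand reads, 2.07 with 1 CpG per fragment, and between 0.992 (without C-iPSC replicate 2) and 6.48 with a library left out. 4F-iPSCs minus C-iPSCs in Ddc was 2.31 with at least 10 reads in every library, and between -0.945 (without C-iPSC replicate 1) and 5.68 (without 4F-iPSC replicate 1) with a library left out. The cause was not tested in any of these.

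Calls were 6 higher and 11 lower in C-iPSCs than in mESCs at a difference above 0.2 (genome 13.6% and 0.153%). Strong calls were 0 to 3 higher and 0 to 2 lower with a library left out (genome 2.9% and 0.0374% with all libraries). CpGs higher in 4F-iPSCs than in mESCs numbered 84 of 220 above 0.2 (genome 28.2%), 0 above 0.5 (genome 2.53%), and 23 to 67 with a library left out (genome 14.3% with all libraries). Those higher relative to C-iPSCs numbered 26 above 0.5 (genome 0.164%).

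Replicates share only a number. With the replicate block, 4F-iPSCs minus C-iPSCs in Ddc was 2.18 points with a Cochran-Mantel-Haenszel p of 0.0496, and no other call changed. Rep1-minus-rep2 differences over CpGs correlated at -0.226 between mESCs and 4F-iPSCs, 0.118 between C-iPSCs and 4F-iPSCs, and 0.0410 between mESCs and C-iPSCs. With crossed numbers 42 CpGs of the 220 were called higher in 4F-iPSCs than in mESCs, against 42 with the block as numbered. The genome share was 14.3% by the exact test without a block. The Ddc promoters of the basic annotation gave no value, and the comprehensive starts were not run for Ddc. Depth limits single CpGs with few reads most.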

Other observations

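The 57 CpGs of the locus with a read but fewer than 10 in some cell type entered no comparison. At the 6 of them in the island, mESCs had 8 summed reads with 37.5% methylated, C-iPSCs 10 reads with 10%, and 4F-iPSCs 17 reads with 52.9%. The 28 in the main Grb10 promoter had 2.86% of 35 reads, 11.8% of 51, and 11.2% of 98 methylated in the same order of cell types. The 7 in Ddc had 2.94% of 34 reads, 10% of 10, and 13.9% of 36.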
